A study of Rattus with 27 samples.

Results

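White blood cells of sham-operated rats were compared with the spleens of the same animals, a baseline contrast between circulating immune cells and a whole lymphoid organ. The members are the 6 arrays titled as sham blood and sham spleen of the rats numbered 3, 4 and 5, out of 27 arrays in the series, and they were paired by that number. The rats were Sprague Dawley animals, the sham operation consisted of anaesthesia and separation of the blood vessels without occlusion, and tissues were taken at 6 h. The white cells are a separated fraction of whole blood, and the spleens were homogenized whole. Each array is therefore an average over all cells of its sample, and no cell counts go with it. The other 12 arrays of these tissues came from 3 rats labelled model and 3 labelled vehicle, both of which had undergone middle cerebral artery occlusion, an operation used as a model of stroke. The treatment text speaks of vehicle controls and of rats given YJ, whereas the titles read model and vehicle, so it is unclear which of these rats were given YJ. Values are RMA expression values from Affymetrix rat gene arrays, taken as log2 intensities, and a difference of 1 is a doubling of signal. Differences are given as white blood cells minus spleen.

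The spleen filters blood and houses lymphocytes. Its red pulp holds macrophages that take up old red cells and recover their iron, along with sinus endothelium and, in rodents, sites of blood cell formation. Its white pulp holds B and T cell areas built on stromal cells that secrete chemokines. Circulating white cells are chiefly lymphocytes, neutrophils and monocytes, and cell separations also carry over platelets and red cells to a varying degree.

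Array values were similar in scale, with medians of 5.02 to 5.23 in white blood cells and 5.09 to 5.14 in spleen. Across genes, arrays correlated at 0.986 to 0.992 within the white blood cells, at 0.989 to 0.992 within the spleens and at 0.901 to 0.924 between the tissues. The white cell array of rat 3 stood apart in its low range: 10% of its values lay below 2.98, against 2.80 and 2.81 in the white cells of rats 4 and 5. Calls of the list genes named below were also made without each rat in turn, and the ones that changed are given beside the gene. With a gene named for each probe, 14506 genes were tested with limma, with the rat as a block and p-values adjusted by Benjamini-Hochberg over all of them, and called genes are those with an adjusted p under 0.05. The number of arrays limits the precision: the median standard error was 0.133. No label says whether hybridization batches coincide with tissues, so a batch and a tissue cannot be told apart.

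White blood cells and spleen differed at 5801 genes, or 40% of those tested. Of these, 2899 (20.0%) were higher in white blood cells and 2902 (20.0%) were lower. The large differences were more often on the spleen side: 691 genes (4.76%) were called higher by at least 1 in white blood cells and 1025 (7.07%) lower by at least 1. At a difference of at least 3 the counts were 54 higher and 147 lower, and at 4 they were 9 higher and 52 lower. The 3 white cell arrays did not overlap the 3 spleen arrays at 7610 genes (52.5%), including 5500 of the 5801 called (94.8%). Without the white cell array of rat 3, in a fit without the rat block, 5151 genes were called. With both arrays of a rat left out the count was 2697 without rat 5 and at most 3976, with 1163 higher and 1534 lower without rat 5. The median difference over all genes was 0.12, with 0.19, 0.07 and 0.04 in rats 3, 4 and 5. In a bulk comparison of this kind, a lower value can reflect fewer cells of a type or less RNA per cell, and these cannot be told apart.

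The genes with the largest excess in white blood cells were led by Lgals2 (probe 10905356), which encodes a galactose-binding lectin of the galectin family. Lgals2 measured 8.60, 8.91 and 8.92 in the white cells of rats 3, 4 and 5, against 3.91, 4.17 and 4.04 in their spleens, a difference of 4.77 ± 0.12 (SE, limma adjusted p = 9.2e-09). Several of the genes behind it are known from platelets. Mpig6b, an inhibitory receptor of megakaryocytes and platelets, read 10.55, 10.47 and 11.00 in white cells and 5.83, 6.44 and 5.96 in spleen (4.60 ± 0.18). Slc6a4, the serotonin transporter by which platelets load serotonin, read 10.78, 9.88 and 10.86 in white cells and 6.07, 6.18 and 6.37 in spleen (4.30 ± 0.18). Slc18a2, the vesicular monoamine transporter that packs serotonin into granules, was 3.99 ± 0.14 higher. Alox12, the platelet 12-lipoxygenase, read 11.03, 10.70 and 11.25 in white cells and 6.32, 7.35 and 7.36 in spleen (3.98 ± 0.22). P2rx1, an ATP-gated channel of platelets, read 10.52, 9.97 and 10.63 in white cells and 6.25, 6.43 and 6.52 in spleen (3.97 ± 0.16). In each of these genes the lowest white cell array lay above the highest spleen array by more than 3 units.

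Other genes in this group included Vipr2, Cnih2 and Reep2. Vipr2, a receptor for vasoactive intestinal peptide, was 4.47 ± 0.17 higher, with 8.93, 9.25 and 9.84 in white cells and 4.73, 5.07 and 4.82 in spleen. Cnih2, an auxiliary protein of AMPA glutamate receptors in neurons, was 4.31 ± 0.18 higher, and Reep2, a protein that shapes the endoplasmic reticulum, was 4.34 ± 0.16 higher. The sham brains of the same rats averaged 10.10 for Cnih2 and 7.45 for Reep2, against white cell arrays of 8.68 to 9.62 and 9.03 to 9.86. Of the 15 leading genes, Cnih2 was the single one whose brain mean exceeded its white cell mean. Mfsd6 (4.11 ± 0.16), Ly6g6f (4.05 ± 0.18), Morc4 (4.01 ± 0.16), Mfap3l (3.94 ± 0.15), Kcnab1 (3.91 ± 0.15) and Liph (3.79 ± 0.16) complete the 15, and all 15 had a limma adjusted p of at most 4.69e-07.

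**Figure D1:**
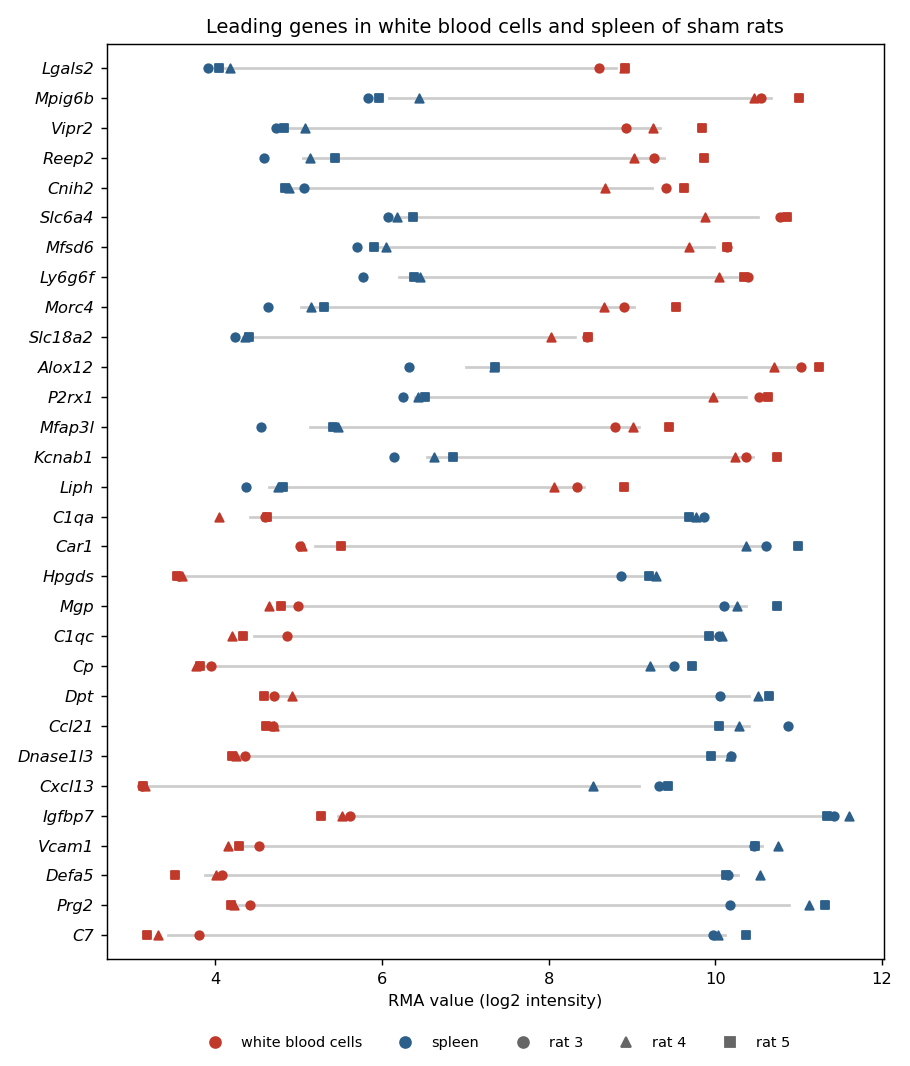
The 15 genes with the largest positive and the 15 with the largest negative difference, with the log2 RMA value of each sham array on the horizontal axis. Red points are white blood cells and blue points spleens, the marker shape gives the rat, and grey lines join the group means. The upper 15 genes lie at 8 to 11.3 in white cells and mostly at 4 to 7 in spleen, and the lower 15 show the opposite order. No gene overlaps, since only genes without overlap were eligible.

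On the spleen side the largest difference was that of C7 (probe 10821666), a component of the complement membrane attack complex. C7 measured 3.80, 3.31 and 3.18 in white blood cells, against 9.97, 10.03 and 10.37 in spleen, a difference of -6.69 ± 0.18 (limma adjusted p = 9.2e-09). Prg2 (probe 10837381), the major basic protein of eosinophil granules, followed with 4.42, 4.22 and 4.19 in white cells and 10.18, 11.13 and 11.32 in spleen (-6.60 ± 0.23). Defa5 (probe 10792534), an alpha-defensin, read 4.08, 4.01 and 3.52 in white cells and 10.15, 10.54 and 10.13 in spleen (-6.40 ± 0.14). Alpha-defensins are a family of near-identical genes, so the member that gave this signal is uncertain. Vcam1 (probe 10826249), an adhesion molecule of spleen macrophages, stroma and endothelium, read 4.52, 4.15 and 4.28 in white cells and 10.46, 10.75 and 10.48 in spleen (-6.25 ± 0.15).

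Several of the remaining leading genes encode secreted products of stroma and macrophages. Igfbp7, a binding protein of the vessel wall, differed by -5.98 ± 0.13, and Dnase1l3, a DNase secreted by macrophages and dendritic cells, by -5.84 ± 0.12. The matrix genes Dpt (-5.67 ± 0.15) and Mgp (-5.56 ± 0.16) were among them. So were Cp, the copper-carrying ferroxidase ceruloplasmin (-5.64 ± 0.14), and Hpgds, a prostaglandin D synthase (-5.55 ± 0.13). The white cell values of these genes lay between 3.54 and 5.62. Brain means exceeded the white cell means for 11 of the 15 leading genes of this direction and exceeded the spleen means for 0 of 15. All 30 leading genes kept their call and direction under every alternative processing that was run, apart from a test against a minimum difference of 1, which was not part of that count.

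Over all genes tested, 20.0% were called higher and 20.0% lower, and the list counts below stand beside these shares. Higher calls near that share included those of iron and haem (22.7%), plasma cell and germinal centre (25%) and dendritic cell genes (17.6%). Genes of megakaryocytes and platelets had the highest list median. Of 18 measured, 17 were called higher and 0 lower in white blood cells, and 15 were higher by at least 1. The list median was 2.10, against 0.12 for all genes. Gp1ba, Gp9 and Gp5 belong to the platelet receptor for von Willebrand factor: Gp1ba read 11.59, 11.76 and 12.03 in white cells and 7.47, 8.49 and 8.23 in spleen (3.73 ± 0.17), Gp9 was 3.60 ± 0.16 higher and Gp5 3.39 ± 0.18. The ADP receptor P2ry12, target of clopidogrel, was 3.73 ± 0.13 higher, with 10.77, 11.04 and 11.36 in white cells and 6.81, 7.43 and 7.75 in spleen. Ptgs1, the cyclooxygenase upstream of platelet thromboxane, was 3.72 ± 0.17 higher, and Itgb3, the beta chain of the fibrinogen receptor, 2.61 ± 0.15 higher. Pf4 and Ppbp, which encode granule contents, differed by less than the platelet genes above, and Pf4 stood near the list median. Pf4, platelet factor 4, read 12.58, 12.70 and 12.67 in white cells and 9.87, 10.88 and 10.77 in spleen (2.14 ± 0.18). Ppbp, a chemokine precursor of platelet granules, read 11.45, 10.76 and 11.97 in white cells and 9.72, 10.78 and 11.01 in spleen (0.89 ± 0.26, limma adjusted p = 0.0213). The Ppbp values overlapped between the tissues, and its call was lost without rat 3, without rat 5 and without the rat block. Pdgfb, the platelet-derived growth factor chain, did not pass the test (-0.09 ± 0.16). Averaged over the list and centred on each gene's mean, the arrays stood at 1.09, 1.00 and 1.42 in white cells and -1.58, -0.96 and -0.97 in spleen, so the list stood higher in every white cell array than in any spleen. Platelet transcripts are not leukocyte transcripts, and what part they have in the other differences was not tested.

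T cell genes were higher in white blood cells at 21 of 26 measured, with 1 lower and a list median of 1.22. Cd28, the costimulatory receptor, read 7.21, 7.80 and 7.41 in white cells and 6.09, 5.75 and 4.85 in spleen (1.91 ± 0.23). Ccr7, the receptor that brings naive T cells into lymphoid tissue, was 1.84 ± 0.18 higher, the transcription factor Tcf7 was 1.76 ± 0.21 higher and Lef1 1.61 ± 0.19. Chains of the antigen receptor complex differed less: Cd3e was 1.24 ± 0.20 higher, Cd3d 0.69 ± 0.20 and Cd3g 0.68 ± 0.17. Of the coreceptors, Cd8a was 1.14 ± 0.20 higher and Cd4, at 0.24 ± 0.17, did not pass the test. No test compared the coreceptors with each other. Il7r, the receptor for interleukin 7, was the member called lower (-0.41 ± 0.12), a call lost whichever rat was left out (-0.44 to -0.36). The list median was 0.59 in rat 3, 1.61 in rat 4 and 1.52 in rat 5. Leaving out rat 5 left 12 members called higher, and Cd3e (1.11), Cd8a (0.95), Cd3d (0.66) and Cd3g (0.66) were then no longer called. Cd3d (0.40) and Cd3g (0.45) also lost the call without rat 4, and Cd4 gained one without rat 3 (0.50).

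Cytotoxic and natural killer cell genes were higher at 26 of 28, lower at 1, with a median of 1.15. Gzma, a granule protease, read 6.83, 8.32 and 8.52 in white cells and 5.19, 5.77 and 5.74 in spleen (2.32 ± 0.20). Prf1, the pore-forming perforin, read 9.41, 10.12 and 10.12 in white cells and 7.76, 7.73 and 7.28 in spleen (2.29 ± 0.20). Faslg, the Fas ligand, was 2.13 ± 0.33 higher, with the white cells of rat 3 at 5.51 and those of rats 4 and 5 both at 7.18. S1pr5, a sphingosine phosphate receptor of natural killer cells, was 2.06 ± 0.13 higher and Ncr1, an activating receptor defining natural killer cells, 1.44 ± 0.13 higher. Xcl1, a chemokine these cells secrete, was the member called lower (-0.44 ± 0.12), a call lost whichever rat was left out (-0.48 to -0.40). Rat 3 had the lowest list median here too, at 0.79 against 1.39 and 1.37 in rats 4 and 5.

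Monocyte genes were higher at 15 of 21 and lower at 4, with a median of 0.88. Fn1, fibronectin, read 11.61, 11.13 and 11.47 in white cells and 8.01, 8.52 and 8.0 in spleen (3.23 ± 0.19). Vcan, the proteoglycan versican, was 2.73 ± 0.32 higher, the fractalkine receptor Cx3cr1 2.64 ± 0.15 higher and the chemokine receptor Ccr2 2.05 ± 0.15 higher. Cd14, the coreceptor for lipopolysaccharide, was 1.39 ± 0.18 higher. The 4 members called lower included the scavenger receptor Cd36 (-1.80 ± 0.16) and Ace, angiotensin-converting enzyme (-1.72 ± 0.18), both of which are also expressed in vessel or macrophage cells. Csf1r, shared by monocytes and macrophages, was at -0.09 ± 0.12 and did not pass the test.

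Receptors that guide leukocyte traffic were higher at 15 of 30 and lower at 5, with a median of 0.57. Sphingosine phosphate, which is higher in blood than in tissue, draws lymphocytes out of lymphoid organs through S1pr1, and S1pr1 was 0.95 ± 0.14 higher in white blood cells. S1pr4 was 1.44 ± 0.14 higher, whereas S1pr2 (0.07 ± 0.15) did not pass the test. The integrin chains Itgb7 (1.45 ± 0.20), Itgb2 (1.35 ± 0.13) and Itgal (1.32 ± 0.14) were higher. Those called lower were the eotaxin receptor Ccr3 (-4.34 ± 0.22), the collagen-binding integrin chain Itga1 (-3.39 ± 0.15), the scavenging receptor Ackr3 (-2.78 ± 0.20), the dendritic cell receptor Xcr1 (-2.29 ± 0.16) and Ccr6 (-0.75 ± 0.13). Cxcr4, the receptor for Cxcl12, was at -0.02 ± 0.16.

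**Figure D2:**
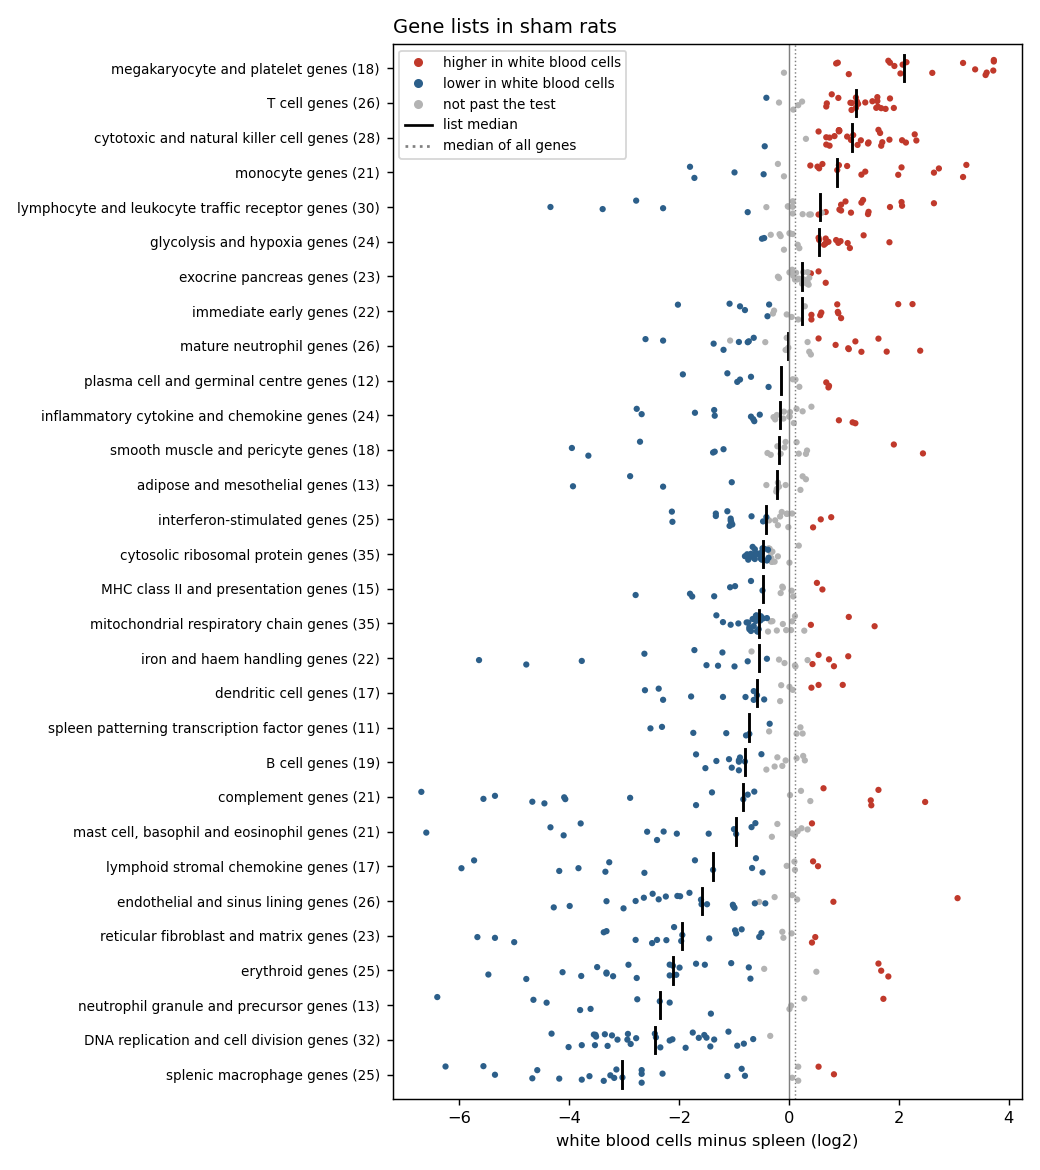
White blood cells minus spleen (log2) for each measured member of 30 gene lists, with the number measured in brackets. Red points were called higher and blue points lower in white blood cells, grey points did not pass the test, black bars are list medians and the dotted line is the median of all genes at 0.12. List medians run from 2.10 for megakaryocyte and platelet genes to -3.03 for splenic macrophage genes.

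Neutrophil genes went in both directions. Among 26 genes of mature neutrophils, 9 were higher and 8 lower, and the median was -0.02. Trem1, which amplifies inflammatory signals, read 9.05, 9.09 and 9.10 in white cells and 6.50, 7.30 and 6.28 in spleen (2.39 ± 0.19), Itgam was 1.78 ± 0.22 higher and the granulocyte growth factor receptor Csf3r 1.63 ± 0.17. The collagenase Mmp8 read 6.57, 6.19 and 6.08 in white cells and 8.43, 9.48 and 8.77 in spleen (-2.61 ± 0.22). The calcium-binding proteins S100a9 (-2.29 ± 0.18) and S100a8 (-1.37 ± 0.25) and the formyl peptide receptor Fpr1 (-1.19 ± 0.24) were also lower. Without rat 5, 2 members of this list were called lower, and S100a8 (-1.27) and Fpr1 (-1.24) were not among them. Cxcr2, the main chemokine receptor of neutrophils, was at 0.40 ± 0.31, and its value changed sign without rat 3 (-0.09) and was called higher without rat 4 (0.99).

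Granule proteins that neutrophils make while they mature were lower at 9 of 13, with 1 higher and a median of -2.35. Ngp, neutrophilic granule protein, read 4.25, 3.60 and 3.93 in white cells and 7.71, 9.59 and 8.43 in spleen (-4.65 ± 0.35). Lcn2, the iron-siderophore binder lipocalin 2, differed by -4.41 ± 0.24, the peroxidase Mpo by -3.80 ± 0.22, the cathelicidin Camp by -3.61 ± 0.27 and the protease Elane by -2.17 ± 0.28. Spleen values of Elane were 6.71 in rat 3 and 8.29 and 8.16 in rats 4 and 5. The member called higher was Chi3l1, a chitinase-like protein (1.72 ± 0.19), which monocytes and macrophages also make. Counts for this list were 9 lower whichever rat was left out.

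Genes of mast cells, basophils and eosinophils were lower at 13 of 21 and higher at 1, with a median of -0.96. Besides Prg2 and Ccr3, the eosinophil peroxidase Epx read 4.71, 4.51 and 4.54 in white cells and 7.41, 9.18 and 9.48 in spleen (-4.10 ± 0.34). Prg3, a homologue of Prg2, read 4.42, 4.42 and 4.39 in white cells and 6.65, 8.59 and 9.35 in spleen (-3.79 ± 0.39). The mast cell and basophil protease Mcpt8 read 3.56, 3.37 and 3.61 in white cells and 4.05, 7.64 and 6.60 in spleen (-2.58 ± 0.52), and its call was lost without rat 5 (-2.38). The spleen of rat 3 was the lowest for all 3 genes. Fcer1a, the IgE receptor chain of basophils and mast cells, did not pass the test (0.11 ± 0.13), and its values were 2.74 to 3.11 in all 6 arrays.

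Splenic macrophage genes had the lowest list median, -3.03, with 20 of 25 lower and 2 higher. After Vcam1 the largest differences were those of the complement C1q chains, which tissue macrophages make. C1qc read 4.86, 4.20 and 4.33 in white cells and 10.05, 10.08 and 9.93 in spleen (-5.56 ± 0.15), C1qa differed by -5.35 ± 0.15 and C1qb by -4.67 ± 0.13. The haemoglobin scavenger receptor Cd163 read 5.17, 4.60 and 4.76 in white cells and 9.21, 9.32 and 9.74 in spleen (-4.58 ± 0.18). Cd5l, a secreted macrophage protein, differed by -4.18 ± 0.13, the receptors for dying cells Axl by -3.63 ± 0.16 and Mertk by -3.37 ± 0.14, and sialoadhesin, Siglec1, by -3.14 ± 0.17. Spic, the transcription factor of red pulp macrophages in mice, differed by -0.80 ± 0.12, from white cell values of 3.74 to 3.85. The mannose receptor Mrc1 read 7.41, 4.64 and 5.66 in white cells and 8.78, 9.23 and 9.24 in spleen (-3.18 ± 0.45), so its white cell value in rat 3 was the highest of the 3. The iron exporter Slc40a1, often used as a marker of red pulp macrophages, was higher in white blood cells, with 11.33, 11.31 and 11.65 against 10.54, 10.67 and 10.63 in spleen (0.82 ± 0.13). Marco and Vsig4 did not pass the test, at 0.17 ± 0.12 and 0.06 ± 0.14.

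Genes that handle iron and haem were lower at 11 of 22 and higher at 5, with a median of -0.54. Of these genes, Hmox1, Slc40a1 and Slc11a1 also belong to the macrophage list, Tfrc to the erythroid list and Hp to the mature neutrophil list. Haem oxygenase Hmox1, which opens the haem ring, read 7.31, 6.67 and 6.97 in white cells and 10.43, 11.16 and 10.67 in spleen (-3.77 ± 0.22). Blvrb, a biliverdin reductase, differed by -2.63 ± 0.22, the haem transporter Slc48a1 by -1.72 ± 0.18 and the ferritin receptor for autophagy Ncoa4 by -1.5 ± 0.14. Ferritin heavy chain, Fth1, was 0.73 ± 0.12 higher in white cells and the light chain Ftl1 was at 0.11 ± 0.12. Haptoglobin, Hp, the plasma binder of free haemoglobin, was 1.08 ± 0.18 higher.

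**Figure D3:**
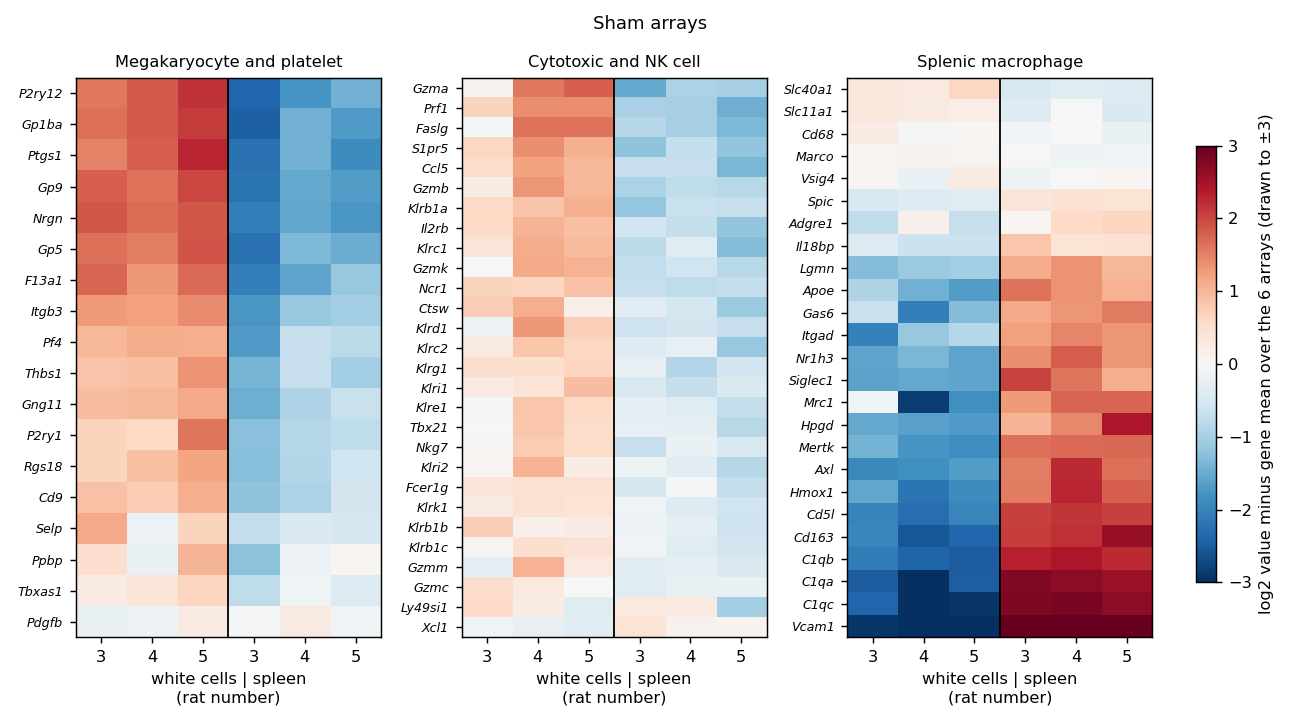
Heat maps of the megakaryocyte and platelet, cytotoxic and natural killer cell, and splenic macrophage lists, with the log2 value of each sham array minus the gene's mean over the 6 arrays (colour scale drawn to 3 either way). White cells of rats 3, 4 and 5 are left of the line and spleens right of it. Platelet genes are red in all 3 white cell arrays, the cytotoxic genes are paler in the white cells of rat 3, and macrophage genes are blue in white cells except for a few members near 0 or above.

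Genes of DNA replication and cell division were lower in white blood cells at 31 of 32, with 0 higher and a median of -2.43. Nusap1, a spindle protein, read 3.90, 3.99 and 3.59 in white cells and 7.84, 8.05 and 8.55 in spleen (-4.32 ± 0.19). Top2a, the topoisomerase of dividing cells, read 4.63, 4.66 and 4.49 in white cells and 8.32, 8.55 and 8.93 in spleen (-4.01 ± 0.16). Ect2, which starts cytokinesis, differed by -3.77 ± 0.15, thymidylate synthase, Tyms, by -3.55 ± 0.18, cyclin Ccnb1 by -3.35 ± 0.15 and the replication clamp Pcna by -2.34 ± 0.13. E2f1, a transcription factor of the cycle, was at -0.34 ± 0.13 and missed the threshold (limma adjusted p = 0.0529). The list kept 29 to 30 lower calls when each rat was left out.

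Erythroid genes were lower at 20 of 25 and higher at 3, with a median of -2.11. Car1, a carbonic anhydrase of red cells and precursors, read 5.01, 5.04 and 5.51 in white cells and 10.61, 10.37 and 10.99 in spleen (-5.47 ± 0.13). Tfrc, the transferrin receptor by which precursors take up iron, differed by -4.78 ± 0.13, the haemoglobin chaperone Ahsp by -4.12 ± 0.23, the nuclear protein Hemgn by -3.78 ± 0.14 and the erythroid transcription factor Klf1 by -2.77 ± 0.16. Alas2, which makes the haem precursor in red cells, read 8.50, 8.45 and 9.10 in white cells and 10.30, 11.19 and 11.08 in spleen (-2.17 ± 0.18). Globin signal was high in both tissues: Hbb read 12.39, 12.36 and 12.51 in white cells and 13.02, 13.18 and 13.16 in spleen (-0.70 ± 0.12). Globin genes are near-identical copies, so their signals may be shared between members. A further globin gene, Hbb-b1, read 11.52, 11.49 and 11.72 in white cells and 12.51, 12.78 and 12.59 in spleen. Globin transcripts were thus present in every white cell array, and the part of red cells in the other differences was not tested. Nfe2 (1.81 ± 0.17) and Tal1 (1.63 ± 0.20), transcription factors that megakaryocytes use as well, were called higher. The blood group gene Xk was the other one, with 5.75, 8.70 and 9.26 in white cells and 5.77, 6.44 and 6.45 in spleen (1.68 ± 0.41). Its values in rat 3 were alike in both tissues, and its call was lost without rat 4 (1.40), without rat 5 (1.12) and without the rat block.

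Stromal genes lay mostly on the spleen side. Of 23 reticular fibroblast and matrix genes 18 were lower and 2 higher, with a median of -1.94. Sparc, a collagen-binding matrix protein, read 5.75, 5.74 and 5.57 in white cells and 10.85, 11.19 and 11.07 in spleen (-5.35 ± 0.13). Ogn, a small proteoglycan, differed by -5.0 ± 0.17, Prelp by -3.37 ± 0.14, the growth factor receptor Pdgfra by -3.32 ± 0.13 and the collagens Col3a1 by -2.09 ± 0.16 and Col1a1 by -0.98 ± 0.14. Fbln1 (0.48 ± 0.12) and Bgn (0.42 ± 0.15) were called higher. The call of Fbln1 was lost whichever rat was left out (0.42 to 0.52), and that of Bgn without rat 3 (0.36), without rat 5 (0.28) and without the rat block (limma adjusted p = 0.0502).

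Chemokines and cytokines of lymphoid stroma were lower at 12 of 17 and higher at 2, with a median of -1.38. Cxcl13, which gathers B cells into follicles, read 3.12, 3.15 and 3.13 in white cells and 9.32, 8.53 and 9.43 in spleen (-5.96 ± 0.18). Ccl21, a ligand of Ccr7 in T cell zones, read 4.69, 4.70 and 4.61 in white cells and 10.87, 10.28 and 10.05 in spleen (-5.73 ± 0.16), and the other ligand, Ccl19, differed by -2.63 ± 0.13. Cxcl12 differed by -4.18 ± 0.19 and the alarmin Il33 by -3.83 ± 0.16. Ligands and receptors thus stood on opposite sides for Ccr7, which was higher in white cells, while the Cxcl13 receptor Cxcr5 was at -0.41 ± 0.15 (limma adjusted p = 0.059).

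Endothelial and sinus lining genes were lower at 20 of 26 and higher at 2, with a median of -1.59. Ramp2, an adrenomedullin coreceptor, differed by -4.28 ± 0.16, Plvap, a protein of vessel pores, by -3.99 ± 0.13 and the junctional cadherin Cdh5 by -2.37 ± 0.17. Lyve1, a hyaluronan receptor of lymphatic and sinus endothelium, went the other way, with 9.77, 9.64 and 10.33 in white cells and 6.57, 6.90 and 7.05 in spleen (3.07 ± 0.14). Esam, a junction protein that platelets also carry, was 0.81 ± 0.18 higher, a call lost without rat 3 (0.62) and without rat 5 (0.74). Smooth muscle and pericyte genes were lower at 6 of 18 and higher at 2, with a median of -0.18. Tagln (-3.95 ± 0.13), Des (-3.65 ± 0.15) and Rgs5 (-2.71 ± 0.13) were lower. Myl9 (2.44 ± 0.14) and Mylk (1.91 ± 0.17), the myosin light chain and its kinase, which platelets use as well, were higher. Transcription factors that pattern the spleen in development were lower at 7 of 11 and higher at 0, led by Tcf21 (-2.52 ± 0.17), Nr2f2 (-2.31 ± 0.14) and Tlx1 (-1.74 ± 0.13).

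B cell genes were lower at 11 of 19 and higher at 0, with a median of -0.80. Cr2, the complement receptor of B cells and follicular dendritic cells, read 6.90, 7.36 and 7.67 in white cells and 9.09, 8.79 and 9.11 in spleen (-1.69 ± 0.17). Ms4a1, which encodes CD20, read 8.63, 8.21 and 7.80 in white cells and 9.96, 9.47 and 9.76 in spleen (-1.52 ± 0.16). Cd72 differed by -1.32 ± 0.14 and the antigen receptor chain Cd79b by -0.89 ± 0.13, whereas the transcription factor Ebf1 was at -0.26 ± 0.16 and did not pass the test, although it was called lower without rat 3 (-0.48). Of 12 plasma cell and germinal centre genes 6 were lower and 3 higher, with a median of -0.15. The antibody joining chain Jchain was lower by the most (-1.93 ± 0.13), while Bcl6 (0.73 ± 0.14), Xbp1 (0.72 ± 0.15) and Prdm1 (0.68 ± 0.14) were higher. Without rat 5 all 3 calls were lost (Bcl6 0.69, Xbp1 0.64 and Prdm1 0.57), and that of Xbp1 also without rat 3 (0.62).

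Antigen presentation genes were lower at 8 of 15 and higher at 2, with a median of -0.48. The costimulatory ligand Cd86 read 6.46, 6.67 and 6.66 in white cells and 9.62, 9.11 and 9.43 in spleen (-2.79 ± 0.15), while Cd80, which shares its receptors, was 0.61 ± 0.13 higher, a call lost without rat 5 (0.54). The class II chains RT1-Da (-1.76 ± 0.12), RT1-Ba (-1.36 ± 0.12) and RT1-Db1 (-1.07 ± 0.12) and the invariant chain Cd74 (-0.98 ± 0.19) were lower, but their master regulator Ciita was at 0.08 ± 0.13. Dendritic cell genes were lower at 10 of 17 and higher at 3, with a median of -0.58. Those of the cross-presenting lineage were lower by the most, with Tlr3 at -2.62 ± 0.14, Clec9a at -2.37 ± 0.14 and Xcr1 at -2.29 ± 0.16.

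Complement genes were mostly lower. Of 21 measured, 13 were lower (61.9%) and 5 higher (23.8%), with a median of -0.83. The share called higher was near the 20.0% of all genes. Besides C7 and the C1q chains, the proteases C1r (-4.09 ± 0.18) and C1s (-4.07 ± 0.13) and their inhibitor Serping1 (-4.45 ± 0.14) were lower. The anaphylatoxin receptors C3ar1 (2.48 ± 0.26) and C5ar1 (1.63 ± 0.20) were higher, as were C3 (1.49 ± 0.14), the central component, and Clu (1.5 ± 0.15), a terminal pathway inhibitor that platelets store. The second C5a receptor, C5ar2, was lower (-0.83 ± 0.15), a call lost without rat 5 (-0.76).

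Interferon-stimulated genes were lower at 13 of 25 and higher at 3, with a median of -0.41, and 8 were lower without the rat block. Rsad2, which encodes viperin, read 7.65, 7.75 and 8.26 in white cells and 9.42, 10.48 and 10.15 in spleen (-2.13 ± 0.18). Ifit1 read 3.30, 6.07 and 6.26 in white cells and 3.79, 9.15 and 9.06 in spleen (-2.12 ± 0.39), so rat 3 was low in both tissues. Its call was lost without the rat block and without rat 5. Oasl2 was higher (0.77 ± 0.12). Among 24 inflammatory cytokines and chemokines 9 were lower and 3 higher, with a median of -0.16, and 5 were lower without rat 3. Csf1, the macrophage growth factor, differed by -2.77 ± 0.16, Il18 by -2.68 ± 0.13 and Il1b by -1.36 ± 0.14, while Ccl4 (1.21 ± 0.20) and Tgfb1 (1.16 ± 0.14) were higher.

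Immediate early genes, which respond within minutes to stimuli and to handling of cells, were higher at 10 of 22 and lower at 6, with a median of 0.23. Fos read 8.25, 7.73 and 8.31 in white cells and 5.52, 6.51 and 5.50 in spleen (2.25 ± 0.26), and Nr4a1 was 1.99 ± 0.13 higher. Egr1 went the other way, with 6.31, 5.96 and 5.88 in white cells and 8.32, 9.14 and 6.76 in spleen (-2.02 ± 0.32), and its call was lost without rat 3. Without rat 5, 5 members were called higher and 3 lower, and without rat 3, 1 was called lower. Glycolysis and hypoxia genes were higher at 13 of 24 and lower at 2, with a median of 0.54. Pkm, pyruvate kinase, was 1.83 ± 0.14 higher, Aldoa, aldolase, 1.36 ± 0.14 and Gapdh 1.11 ± 0.12, and 8 members were called higher without rat 5.

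Genes of translation and respiration were mostly lower where they were called. Cytosolic ribosomal protein genes were lower at 22 of 35 and higher at 0, with a median of -0.48 and none beyond -0.80. That count was 4 without rat 3, 18 without rat 4 and 0 without rat 5. Respiratory chain genes were lower at 22 of 35 and higher at 3, with a median of -0.54, and 8 were lower without rat 5. Cycs, cytochrome c, differed by -1.20 ± 0.13 and Uqcrb, a complex III subunit, by -1.32 ± 0.17, while Cox5a was 1.56 ± 0.14 higher.

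Tissue carried along in dissection was checked with 2 lists. Exocrine pancreas genes, which would show pancreas attached to the spleen, were called lower in white blood cells at 0 of 23 and higher at 3, with a median of 0.24. The largest was Ctrb1 (0.67 ± 0.13), whose call was lost without rat 5 (0.59) and without the rat block. Adipose and mesothelial genes, of the fat and covering of the spleen, were lower at 4 of 13 and higher at 0. Fabp4, a fatty acid binder of adipocytes, capillaries and macrophages, read 3.41, 3.18 and 3.40 in white cells and 6.90, 7.02 and 7.87 in spleen (-3.93 ± 0.18). Adipoq, the adipocyte hormone, read 4.05, 3.52 and 3.48 in white cells and 3.61, 3.28 and 4.82 in spleen. The list mean, centred on each gene, was -0.25, -0.52 and -0.46 in white cells and 0.22, 0.21 and 0.80 in spleen, with rat 5 the highest spleen.

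Several small counts of higher calls also changed when a rat was left out. Without rat 5 there were 0 higher calls among the presentation genes, 0 among the exocrine pancreas genes and 0 among the lymphoid stromal chemokine genes. The single higher call among mast cell, basophil and eosinophil genes was lost whichever rat was left out. Without rat 3 or without rat 5, the higher calls numbered 1 among dendritic cell genes, 1 among interferon-stimulated genes, 1 among splenic macrophage genes and 3 among iron and haem genes. The 2 lower calls among glycolysis genes were lost without rat 4 and without rat 5.

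The tissue difference was then set beside that of the model-labelled and vehicle-labelled rats, whose comparisons share the sham arrays when they are tested against sham. Of the 691 genes higher by at least 1 in sham white cells, 684 (99%) were also higher in all 6 other rats. Of the 1025 lower by at least 1, 905 (88.3%) were lower in all 6, against 5637 of all 14506 genes (38.9%) with 1 sign throughout. The 120 exceptions on the lower side included 15 of the 18 erythroid genes with such a difference, 8 of 10 interferon-stimulated genes, 3 of 4 mature neutrophil genes, 3 of 5 B cell genes, 4 of 8 iron and haem genes, 3 of 9 neutrophil granule genes, 0 of 18 splenic macrophage genes and 0 of 28 cell division genes.

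A test of the difference itself, on the 18 arrays of both tissues, called 0 genes (0%) for model against sham and 188 (1.30%) for vehicle against sham, of which 172 were higher and 16 lower. At an unadjusted p under 0.05 the counts were 1432 and 2380. Of the 25 erythroid genes measured, 18 were among the 188 vehicle calls. The erythroid list median was -0.59 in model rats and 0.18 in vehicle rats, against -2.11 in sham rats. Car1 differed between the tissues by -1.05 in vehicle rats, against -5.47 in sham rats (vehicle minus sham 4.42 ± 0.49, limma adjusted p = 0.000287). In white cells Car1 averaged 8.43 ± 0.96 in vehicle rats, against 5.19 ± 0.28 in sham rats (SD, n = 3 each), and in spleen 9.48 ± 2.03 in vehicle rats, against 10.66 ± 0.31 in sham rats. Hemgn had white cell means of 10.03 ± 0.63 in vehicle rats and 7.17 ± 0.14 in sham rats, and spleen means of 10.30 ± 1.13 in vehicle rats and 10.94 ± 0.32 in sham rats. Haemoglobin transcripts were also higher in the white cells of vehicle rats, where Hbb averaged 13.13 ± 0.03, against 12.42 ± 0.08 in sham rats. The white cells of model rats averaged 12.86 ± 0.08 for Hbb, 7.72 ± 0.10 for Hemgn and 5.50 ± 0.17 for Car1.

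Genes of maturing neutrophils showed the same order in part. The granule list median was -1.87 in model rats and -0.04 in vehicle rats, against -2.35 in sham rats, and 3 of 13 were called in the vehicle test. Ngp averaged 7.57 ± 0.46 in the white cells of vehicle rats, against 3.93 ± 0.33 in those of sham rats, and 7.01 ± 0.75 in the spleens of vehicle rats, against 8.58 ± 0.95 in those of sham rats (vehicle minus sham of the difference 5.21 ± 0.69). Lcn2 followed the same order in white cells, at 8.49 ± 0.38 in vehicle rats and 5.04 ± 0.28 in sham rats. Mpo, a product of earlier precursors, did not pass this test, with a tissue difference of -3.37 in vehicle rats and -3.80 in sham rats. Rsad2 averaged 10.58 ± 0.53 in the white cells of vehicle rats, against 7.89 ± 0.33 in sham rats. Its spleen means were 9.17 ± 0.93 in vehicle rats and 10.02 ± 0.54 in sham rats (vehicle minus sham of the difference 3.54 ± 0.36, SE).

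Medians of other lists are given side by side, without a test. The platelet median was 2.45 in model rats and 2.12 in vehicle rats, against 2.10 in sham rats. For splenic macrophage genes it was -3.18 in model rats and -2.80 in vehicle rats, against -3.03 in sham rats, and for T cell genes 1.05 in model rats and 1.17 in vehicle rats, against 1.22 in sham rats. Leaving out rats moved the vehicle count between 118 (without vehicle rat 2) and 197, with 120 without sham rat 4, and 92 genes were called without the rat block. The spleen arrays of vehicle rat 2 and model rat 2 had the highest medians among the spleens, at 5.31 and 5.27. Their low range was also shifted: 10% of values lay below 2.92 and 2.88. What part this has in the counts was not tested.

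**Figure D4:**
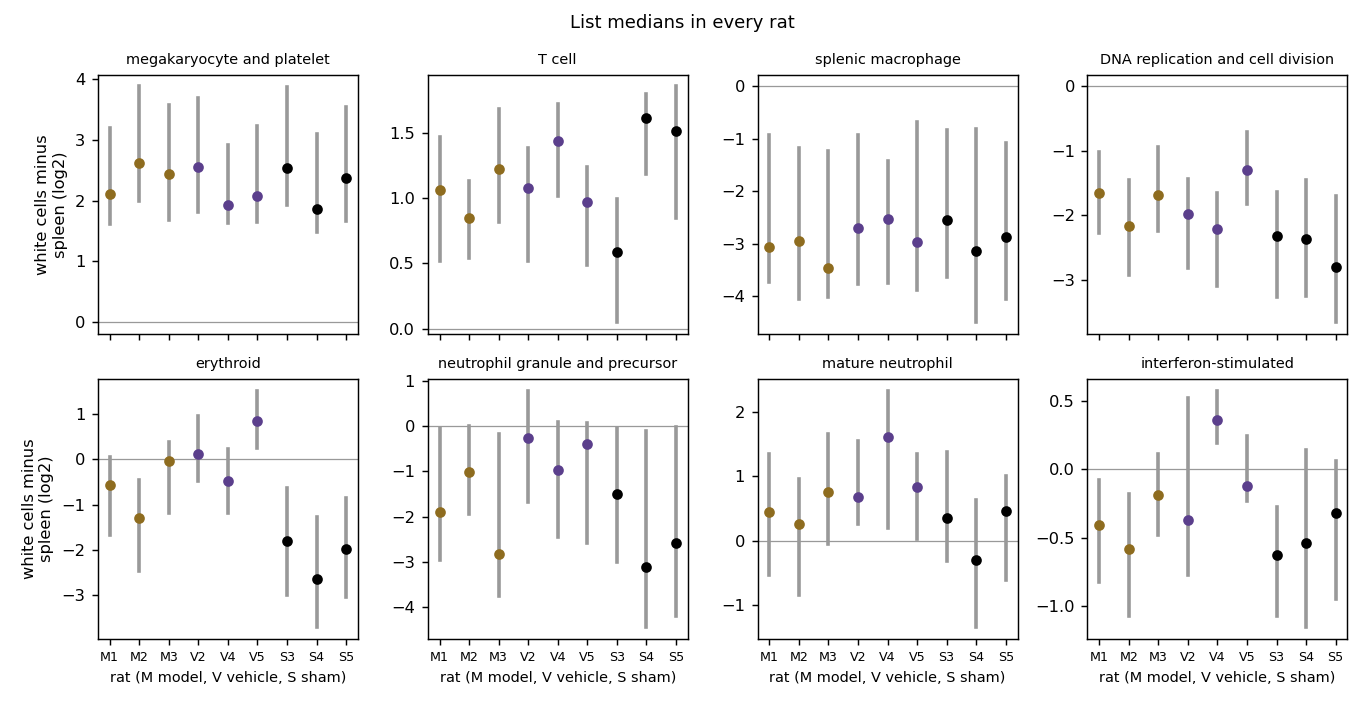
Median (point) and quartile range (bar) of white blood cells minus spleen (log2) over the members of 8 gene lists in each of 9 rats, labelled M for model, V for vehicle and S for sham. The upper 4 lists lie on 1 side of 0 in every rat. The erythroid medians of the sham rats (-1.80, -2.64 and -1.98) lie below those of the other 6 rats.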

How the data were processed

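The authors' deposited table holds log2 values (RMA, version not stated, per the submitters' processing notes) for 27596 probes on 27 arrays; the log2 scale is inferred from values of 1.53 to 13.49, and whether tissues were normalized together is not stated in the sources used here. Total RNA was reverse transcribed and labelled with biotin, per the labels' protocols. No values were renormalized. Of the probes, 15310 had 1 gene symbol in the platform annotation, 323 had several and 11963 had no listed gene. Per gene the probe with the highest mean over 27 arrays was kept (14506 genes, 527 with several probes). No genome or sequence was used, so coordinates and sequences are not reported. The RefSeq gene table served only for names and for which genes neighbour each other.

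Groups came from the titles. The 2-sided moderated test of limma 3.58.1 (R 4.3.3) was fitted to the 6 sham arrays with tissue and rat as terms, and an interaction was fitted to the 18 arrays of both tissues with rat as a block. The pairing rests on the series design, by which the tissues of each rat were extracted. Deviations from the tissue mean correlated across genes at 0.187, 0.032 and 0.198 within rats 3, 4 and 5, against -0.295 to 0.108 for different rats. Within a tissue these deviations cancel out over the rats, so the values are not independent and do not test the pairing. Numbers shared between groups are different rats. No label says more about the replicates. With the rat as a term, p-values set a tissue difference against its variation over these rats, moderated by limma over all genes. On simulated data with 14506 genes for this comparison, the fit recovered 22 of 50 genes changed by 0.5 and 50 of 50 at each of 1, 2 and 4, with 24 false calls. The genes changed in the simulation were a far smaller share than the 40.0% called here, and its noise was independent between genes. Recovery and false calls in the data may therefore differ.

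Genes to name were the 15 largest differences each way among called genes without overlap, and the 5 largest interactions each way. For each list they were up to 4 called members with the largest difference and its first 3 measured symbols. Not every gene chosen by this rule is printed, and other list members are given where the order of roles needs them. The 30 lists (773 entries, 667 measured, 10 through a synonym) and the members were chosen with earlier results of these data known. Alternatives covered the block, the arrays fitted, normalization, a filter, probe choice, variance prior, weights, thresholds and leaving out each rat; the fit without the block and without the white cell array of rat 3 was chosen after seeing the data.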

Additional observations from a re-analysis of the deposited data

Results flagged for a closer look

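The tissue difference (white blood cells minus spleen, log2) differed between vehicle-labelled and sham rats in the interaction test, with limma adjusted p under 0.05, at 24 of the named genes. The values are vehicle minus sham of that difference, and no gene was called for model against sham. The red cell genes among them were positive: Car1 4.42, Hemgn 3.51, Alas2 3.32, Ahsp 3.31, Aqp1 2.91, Tfrc 2.34, Hbb-b1 1.17 and Hbb 0.79. Haem handling genes were positive at Blvrb, 2.57, and Slc48a1, 1.5. Neutrophil genes were positive at Ngp 5.21, Lcn2 4.41, Mmp8 3.30 and S100a9 1.56, and the interferon-stimulated genes at Rsad2 3.54 and Cmpk2 1.96. Cd52, a surface glycoprotein of leukocytes, had 3.82: its white cell mean was 9.29 ± 0.58 in vehicle rats and 6.35 ± 0.05 in sham rats. Alox15, a lipoxygenase of eosinophils and red cell precursors, had 3.67, and the chemokine Ccl19 had 1.02. Negative values were those of Cxcl16 (-1.21), the collagen chaperone Serpinh1 (-1.08), lipoprotein lipase Lpl (-1.01), the glutamine transporter Slc38a3 (-0.90) and Dmrtc1a (-0.87). In the sham contrast of the tissues, Cxcl16 lost its call without rat 3 and without rat 5, and Alox15 without rat 4 and without rat 5. Serpinh1 averaged 8.90 ± 0.34 in the spleens of vehicle rats, 9.16 ± 0.32 in those of model rats and 7.67 ± 0.36 in those of sham rats. Spleen means of Lpl were 9.93 ± 0.26 in vehicle rats, 10.41 ± 0.17 in model rats and 9.64 ± 0.32 in sham rats. Its white cell means were 3.81 ± 0.29 in vehicle rats, 3.88 ± 0.08 in model rats and 4.53 ± 0.08 in sham rats. The higher spleen mean of Serpinh1 and the lower white cell mean of Lpl were thus not particular to the vehicle label. For Lpl the spleen means of vehicle and sham rats lay within their SDs of each other. Red cell genes were higher in the white cells of vehicle rats than in those of sham rats. In model rats, white cell means of Hbb (12.86 ± 0.08) and Alas2 (9.78 ± 0.15) also lay above sham (12.42 ± 0.08 and 8.68 ± 0.36). That of Tfrc did not (5.25 ± 0.31, against 5.29 ± 0.11). The part of red cell genes in the other values was not tested. These comparisons share the sham arrays with the report's main contrast.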

How the results depend on the processing

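The main comparison called 5437 genes without the replicate block, 5351 of them shared with the 5801 called with it. Counts moved by over 1.5 times with a rat left out (below), with limma's treat against a difference of 1 (821 in all, 285 higher and 536 lower) and with an adjusted p under 0.01 (3743, 1640 higher). Leaving out a rat gave 2697 to 3976 calls, 1163 to 1835 higher and 1534 to 2274 lower. Median centring moved the share called higher to 55.6%. The vehicle interaction had 118 to 197 calls with a rat left out and 92 with no replicate block, and the model interaction 0 to 1 (1 without sham rat 3). Of 186 called genes chosen by the naming rule, printed or not, 158 kept their call in all alternatives but treat. Ppbp, Ifit1, Mx2, Nkx2-5 and Ctrb1 lost it without the block. Reversed values belonged to genes that did not pass the test: with quantile normalization Cpb1 -0.02, Fcer1a -0.02 and Mx1 0.01; with array weights Hk3 -0.04, Hk1 -0.06 and Mx1 0.07; and without the block and the white cell array of rat 3 Cpb1 -0.11, Ciita -0.09, Hk3 -0.18, Hk1 -0.09 and Rplp0 -0.07. With a rat left out, ranges that reached or crossed 0 were Cxcr2 -0.09 to 0.99, Ciita -0.03 to 0.17, Hk3 -0.14 to 0.30, Hk1 -0.18 to 0.14, Mx1 -0.19 to 0.18, Pecam1 -0.02 to 0.22, S1pr2 -0.11 to 0.20, Rplp0 0 to 0.01, Ndufa4 -0.19 to 0.03 and Adipoq -0.55 to 0.34. The cause was not tested. Promoters were planned and not run, since sequences are not used here. Arrays gave no detection call, so values near the low end are not known to be above background.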

Other observations

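Some leading genes are neighbours in the RefSeq gene order. Mpig6b (4.60 ± 0.18) and Ly6g6c (3.64 ± 0.20) are adjacent, and Ly6g6f (4.05 ± 0.18) lies on the same side of Mpig6b as Ly6g6c, with Ly6g6d (0.39 ± 0.13) and Ly6g6e (0.39 ± 0.12) between them. On the other side of Mpig6b, Ddah2 (-0.39 ± 0.12) and Clic1 (-0.64 ± 0.12) were lower in white blood cells. Prg2 (-6.60 ± 0.23) stands between Slc43a3 (-3.89 ± 0.13), a transporter of purine bases, and Prg3 (-3.79 ± 0.39), and a further transporter gene, Slc43a1 (-2.58 ± 0.14), is separated from Slc43a3 by Rtn4rl2 (0.15 ± 0.13). The C1q genes C1qb, C1qc and C1qa are adjacent, and their neighbours Ephb2 (0.08 ± 0.12) and Epha8 (0.37 ± 0.13) did not share their direction. These neighbourhoods were chosen after their values were seen. Among the 174 genes higher by at least 2 in white blood cells, 24 belonged to any of the 30 lists, and among the 373 lower by at least 2, 120 did, so most of the large differences lie outside the lists.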
